A study of Rattus norvegicus with 12 samples.

Results

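Serpins are a family of serine protease inhibitors, and their transcripts were followed here in the liver of fetal rats. The members were all genes of the array's annotation table whose symbol starts with Serpin, which gave 36 of the 14497 genes that a probe named alone. Of these, 21 belong to clades whose proteins are secreted (13 in clade A, 2 each in clades F and I, and 1 each in clades C, D, E and G), 14 belong to clade B, and 1 is Serpinh1. Each of the 36 rested on 1 probe. Another 2 probes carried more than 1 Serpin symbol and were left out.

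A serpin traps its target protease by offering a flexible reactive loop as bait. Once cleaved, the loop folds into the body of the serpin and drags the protease into a covalent, inactive complex. The liver makes most of the serpins of plasma, which restrain clotting, fibrinolysis, complement and the enzymes of neutrophils, and some of which no longer inhibit any protease and carry hormones instead. Clade B serpins lack a cleaved signal peptide and mostly stay in the cytosol, where they guard cells against their own granule and lysosomal proteases. Serpinh1, also known as Hsp47, stays in the endoplasmic reticulum (ER) as a chaperone of collagen.

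The livers came from Sprague Dawley fetuses at day 19 of a 21-day gestation. Fasted dams went without food for 48 hr, starting on day 17, as a model of intrauterine growth restriction. Fed dams ate freely. Total liver RNA and polysome RNA, the RNA from sucrose gradient fractions that hold messages with several ribosomes, went to separate Affymetrix Rat Gene 1.0 ST arrays. This gave 12 arrays in 4 groups of 3: fasted polysome, fasted total, fed polysome and fed total. The labels name 3 dams for each diet and call the samples biological replicates, but do not say how many fetuses of a litter gave tissue. Polysome RNA came from pooled preparations by phenol extraction and total RNA from frozen liver by cesium chloride centrifugation, so fraction and extraction method cannot be told apart. With 3 arrays in a group, their number sets the precision.

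Levels are log2(intensity + 1) of the deposited values, and changes are differences of group means on that scale, each with its standard error (SE) from limma and resting on 3 arrays in every group (n = 3). A gene counted as higher or lower when limma's Benjamini-Hochberg adjusted p over all genes tested was below 0.05. Over all probes the correlation between arrays was 0.991 to 0.996 within a group and 0.982 to 0.988 between the fractions. Fetal liver also makes blood cells: the 14 hepatocyte markers and the 9 erythroid markers that the table held all passed the filter on low values, as did the 12 endothelial, 14 stellate and mesenchymal, 12 macrophage and 6 megakaryocyte markers. Of 14 neutrophil and mast cell granule markers, 9 passed. In such mixed tissue, fewer cells of a type and less RNA per cell cannot be told apart. Some markers of the exocrine pancreas, but not all, were high on single arrays. Cpa1, the pancreatic carboxypeptidase A, measured 10.10 log2 on fed total array 1 and 8.98 on fed total array 3. On the other 10 arrays it measured at most 7.87. Cpb1 did not share this, at 7.47, 6.38 and 7.59 log2 in fed total RNA against 8.03, 7.57 and 8.03 in fasted total RNA. Ctrc stayed between 6.43 and 6.75 log2 on all 12 arrays.

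Of the 36 serpins, 20 had a mean level at or above the filter, 6.07 log2, and were tested: 14 of 21 from the secreted clades, 5 of 14 from clade B, and Serpinh1. The member just above the filter was Serpina1f at 6.29 log2, and the member just below it was Serpina3c at 5.70 log2. The 9 clade B members below the filter stayed at or below 5.76 log2 on every array. The genes neighbour each other in clusters. In the GRCr8 annotation 12 of the 13 clade A members lie within a run of 18 protein-coding genes, Serpinf1 lies next to Serpinf2, and the 5 clade B members Serpinb6a, Serpinb9d, Serpinb9, Serpinb6b and Serpinb1a lie within a run of 10. Of those 5, 4 were tested.

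The clearest pattern among the serpins lay between the fractions. Of the 14 secreted members tested, 12 were lower in polysome than in total RNA in fasted dams and 11 in fed dams, and none was higher in either. The share of all 10174 genes tested that was lower was 18.2% in fasted and 19.4% in fed dams, and 43.7% and 43.5% were called in either direction. The 5 clade B members were split: Serpinb6a was higher in polysome RNA, Serpinb9 and Serpinb10 were lower, and Serpinb1a and Serpinb6b did not pass, the same calls in both diets. Among all genes, 25.5% were higher on polysomes in fasted dams and 24.1% in fed dams. Serpinh1 was lower in both diets. In all, 15 members were called in both diets, 14 lower and 1 higher. For each called member the polysome and total arrays of that diet did not overlap, as was the case for 31.1% of all genes upwards and 21.5% downwards in fasted dams, and for 29.4% and 23.5% in fed dams.

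**Figure D1:**
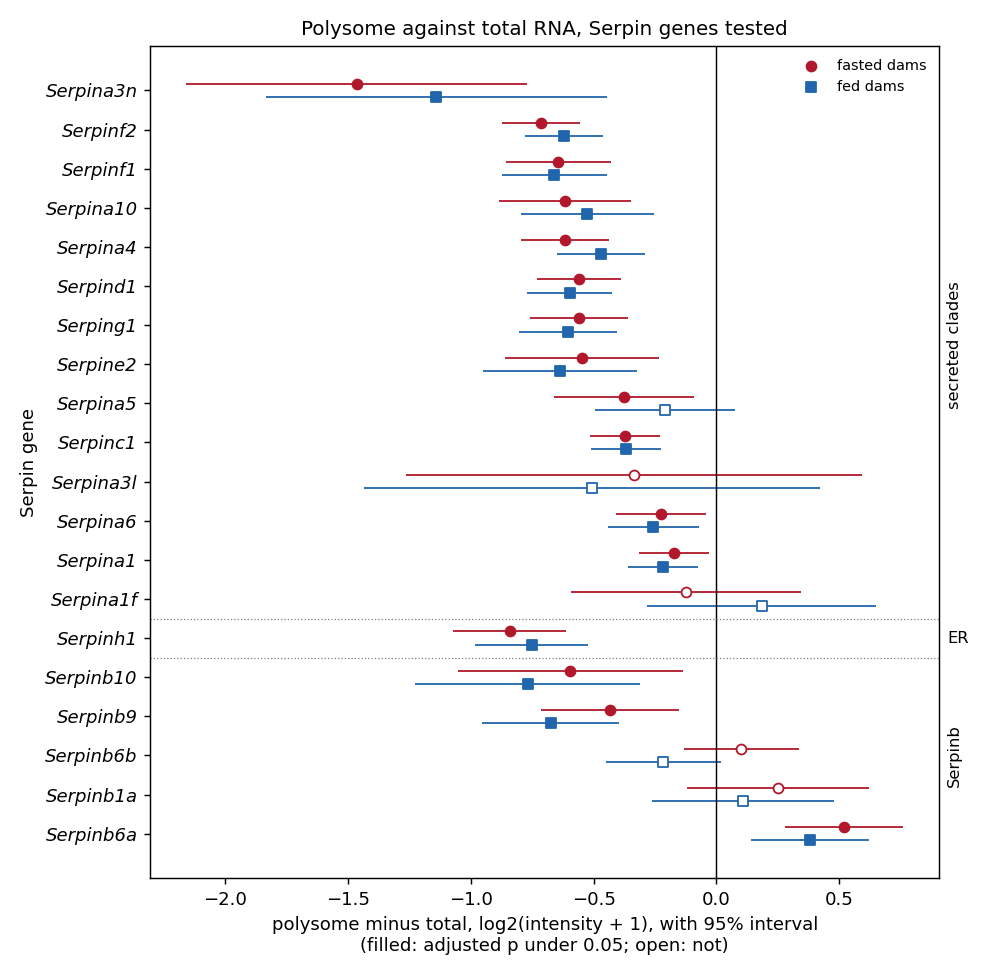
Change between polysome and total RNA for the 20 tested serpins, in fasted (red circles) and fed dams (blue squares). The x axis is polysome minus total in log2(intensity + 1), bars are 95% intervals of the limma fit, and filled symbols passed the adjusted threshold. Filled symbols of the secreted clades all lie left of 0, from -1.47 to -0.17, and Serpinb6a lies right of 0 in both diets.

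The plasma inhibitors of clotting and fibrinolysis were lower on polysomes by differing amounts. Serpinf2 (alpha2-antiplasmin, the main plasma inhibitor of plasmin) measured 12.31, 12.36 and 12.24 log2 on fasted polysome arrays 1 to 3, against 12.98, 13.07 and 13.00 on fasted total arrays. On fed polysome arrays it measured 12.30, 12.20 and 12.41, against 12.97, 12.93 and 12.87 on fed total arrays. All 6 polysome values lay below all 6 total values, and Serpinf2 was 1.64-fold lower in fasted dams (-0.72 ± 0.074 SE log2, limma adjusted p = 9.46e-06) and 1.54-fold lower in fed dams (-0.62 ± 0.074, limma adjusted p = 2.98e-05). Serpinc1 (antithrombin, which blocks thrombin and factor Xa) measured 12.31, 12.36 and 12.29 log2 on fasted polysome arrays, against 12.72, 12.67 and 12.69 on fasted total arrays. Its fed values were 12.24, 12.33 and 12.41 log2 on polysomes and 12.71, 12.69 and 12.68 in total RNA. The groups did not overlap, and the difference was -0.37 ± 0.066 log2 in fasted dams and -0.37 ± 0.066 in fed dams (limma adjusted p = 5.42e-04 and 5.99e-04).

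Serpind1 (heparin cofactor II, a second thrombin inhibitor) measured 11.61, 11.63 and 11.50 log2 on fasted polysome arrays, against 12.16, 12.17 and 12.08 on fasted total arrays. In fed dams it measured 11.45, 11.31 and 11.57 log2 on polysomes, against 12.10, 11.97 and 12.04 in total RNA. It was thus 1.47-fold lower in fasted and 1.51-fold lower in fed dams, with no overlap in either. Serpina10 (the protein Z-dependent inhibitor of factor Xa) was 1.53-fold lower on polysomes in fasted dams, at 11.07, 10.74 and 10.67 log2 against 11.62, 11.43 and 11.28. In fed dams it was 1.44-fold lower, at 10.71, 10.90 and 11.12 log2 against 11.37, 11.51 and 11.42. Serping1 (C1 inhibitor, which restrains complement C1 and plasma kallikrein) stood at 11.15, 11.06 and 10.97 log2 on fasted polysome arrays, against 11.66, 11.72 and 11.48 in total RNA. Its fed values were 11.04, 10.77 and 10.87 log2 on polysomes and 11.43, 11.60 and 11.46 in total RNA, and the folds were 1.47 and 1.52. Each polysome array of these 3 genes lay below every total array of its diet.

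Serpine2 (protease nexin-1, which inhibits thrombin and plasminogen activators at cell surfaces) was dimmer and more variable. It measured 6.78, 7.01 and 6.72 log2 on fasted polysome arrays, against 7.17, 7.18 and 7.79 on fasted total arrays. The fed values were 6.84, 6.91 and 6.75 log2 on polysomes, against 7.62, 7.35 and 7.44 in total RNA. It passed in both diets (-0.55 ± 0.15 and -0.64 ± 0.15 log2, limma adjusted p = 0.00789 and 0.00315), and fasted total array 3 stood above the other fasted total arrays. Serpina5 (protein C inhibitor) lay near the filter, at 6.37, 6.30 and 6.48 log2 on fasted polysome arrays against 6.80, 6.61 and 6.87 on fasted total arrays. It passed in fasted dams (-0.37 ± 0.13 log2, limma adjusted p = 0.0345), but not without fasted total array 1 or 3 or fasted polysome array 1 or 2 (limma adjusted p = 0.0885, 0.114, 0.0783 and 0.096). Nor did it pass with arrays centred on their median or with quantile normalization (limma adjusted p = 0.0621 and 0.0747). In fed dams the values overlapped, at 6.05, 6.41 and 6.42 log2 against 6.23, 6.75 and 6.52, and it did not pass (-0.21 ± 0.13 log2, limma adjusted p = 0.225). It passed in fed dams at an adjusted p of 0.0383 with a replicate block for each pair of polysome and total arrays that share a diet and a number.

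Among the called members, Serpina1 and Serpina6 had the smallest differences. Serpina1 (alpha1-antitrypsin, the main plasma inhibitor of neutrophil elastase) measured 13.34, 13.36 and 13.39 log2 on fasted polysome arrays, against 13.59, 13.53 and 13.49 on fasted total arrays. Fed dams gave values of 13.21, 13.17 and 13.32 log2 on polysomes, against 13.44, 13.48 and 13.42 in total RNA. The groups did not overlap, yet the differences were small, -0.17 ± 0.066 log2 in fasted and -0.22 ± 0.066 in fed dams (limma adjusted p = 0.048 and 0.0172). With the replicate block the fasted difference did not pass (limma adjusted p = 0.0738), and it passed in 5 of 22 alternatives. The fed difference did not pass without fed total array 2 or fed polysome array 2 (limma adjusted p = 0.0597 and 0.073). Serpina6 (corticosteroid-binding globulin, the plasma carrier of glucocorticoids) measured 12.97, 13.11 and 12.92 log2 on fasted polysome arrays against 13.13, 13.41 and 13.15 in total RNA. In fed dams it measured 13.11, 13.10 and 13.21 log2 against 13.45, 13.38 and 13.36. It passed in both diets (-0.23 ± 0.086 and -0.26 ± 0.086 log2, limma adjusted p = 0.0469 and 0.0267). The fasted difference passed in 11 of 22 alternatives and was -0.14 log2 without fasted total array 2 (limma adjusted p = 0.213). The fed difference passed in 18 and lost its call without fed total array 1 or 2 or fed polysome array 1 or 2.

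Serpina4 (kallistatin, an inhibitor of tissue kallikrein) stood at 10.98, 10.78 and 10.77 log2 on fasted polysome arrays, against 11.42, 11.53 and 11.43 on fasted total arrays. Its fed values were 11.02, 10.83 and 11 log2 on polysomes and 11.51, 11.37 and 11.38 in total RNA. It was 1.53-fold lower in fasted and 1.39-fold lower in fed dams. Serpinf1 (pigment epithelium-derived factor, a secreted serpin that inhibits no protease) measured 11.07, 10.96 and 10.75 log2 on fasted polysome arrays, against 11.54, 11.59 and 11.58 in total RNA. The fed values were 10.75, 10.66 and 10.96 log2, against 11.36, 11.42 and 11.57, and it was 1.56-fold lower in fasted and 1.58-fold lower in fed dams. For both genes every polysome value lay below every total value.

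Serpina3n, a rodent counterpart of alpha1-antichymotrypsin that is induced in the acute phase response, had the widest difference of the family. It measured 9.59, 8.99 and 9.16 log2 on fasted polysome arrays, against 11.51, 10.65 and 9.97 on fasted total arrays. Fed dams gave values of 8.88, 8.91 and 8.22 log2 on polysomes, against 9.74, 10.22 and 9.47 in total RNA. It was 2.76-fold lower in fasted dams (-1.47 ± 0.32 log2, limma adjusted p = 0.00245) and 2.20-fold lower in fed dams (-1.14 ± 0.32, limma adjusted p = 0.0114). Of its 4 groups, fasted total RNA had the widest spread, and the fed difference just missed the threshold without fed total array 2 or fed polysome array 3 (limma adjusted p = 0.0508 and 0.0535). Its neighbour Serpina3l did not pass in either diet (-0.34 ± 0.43 and -0.51 ± 0.43 log2), with fasted polysome arrays from 5.79 to 7.77 log2. The Serpina3 genes are close copies of each other, and how far their probes share signal was not tested. Serpina1f, a relative of Serpina1, measured -0.12 ± 0.22 log2 in fasted and 0.18 ± 0.22 in fed dams and did not pass in either.

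Serpinh1, the collagen chaperone, lay further below its own total RNA level on polysomes than any secreted member other than Serpina3n. It measured 9.05, 9.31 and 8.99 log2 on fasted polysome arrays, against 9.97, 9.91 and 10 on fasted total arrays. In fed dams it measured 9.37, 9.35 and 9.69 log2 on polysomes, against 10.25, 10.11 and 10.31 in total RNA. All polysome arrays lay below all total arrays, by 1.79-fold in fasted dams (-0.84 ± 0.11 log2, limma adjusted p = 4.30e-05) and 1.68-fold in fed dams (-0.75 ± 0.11, limma adjusted p = 1.09e-04). Of 18 tested collagens and collagen-modifying proteins, 18 were lower on polysomes in fasted dams and 17 in fed dams, against 18.2% and 19.4% of all genes. Among them were the lysyl hydroxylases Plod1 and Plod3, at -0.84 and -1.20 log2 in fasted and -0.75 and -0.95 in fed dams. Stellate and mesenchymal markers, from cells that make collagen, also summed to less in polysome RNA, but the lists are not independent. Col1a1, Col1a2 and Col3a1 are in both. The 14 markers summed to 12.63 to 12.74 log2 in fasted polysome RNA, against 13.2 to 13.32 in fasted total RNA. In fed dams they summed to 12.59 to 12.74 in polysome RNA, against 13.16 to 13.3 in total RNA. Of these, 9 were lower in fasted and 10 in fed dams, and their part in the Serpinh1 values was not tested.

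The promoters of Serpinh1 and Serpina3n are shown because these genes had the smallest unadjusted p of the family for fasting, Serpinh1 in polysome and Serpina3n in total RNA, and because each holds a response element known from stress or acute phase biology. They are RefSeq sequences of build GRCr8, the 250 bases before the transcript start that the sequence table uses, read 5′ to 3′ on the strand of the gene. For Serpinh1 that start is not the outermost one: 201 of the 250 bases, the marked element among them, lie within the annotated bounds of the gene. For Serpina3n 0 do. Serpinh1 lies at chr1:163062977-163063226 on the minus strand, and the capitals mark a heat shock element, the alternating repeat that heat shock factor binds.
Serpinh1: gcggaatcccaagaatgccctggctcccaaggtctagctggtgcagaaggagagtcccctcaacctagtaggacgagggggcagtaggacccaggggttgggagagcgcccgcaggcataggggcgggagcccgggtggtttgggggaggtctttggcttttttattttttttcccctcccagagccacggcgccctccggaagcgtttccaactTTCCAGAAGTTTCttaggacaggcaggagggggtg
Serpina3n lies at chr6:129088142-129088391 on the plus strand, and the capitals mark a STAT element, the spaced palindrome bound by the STAT factors of interleukin-6 signalling.
Serpina3n: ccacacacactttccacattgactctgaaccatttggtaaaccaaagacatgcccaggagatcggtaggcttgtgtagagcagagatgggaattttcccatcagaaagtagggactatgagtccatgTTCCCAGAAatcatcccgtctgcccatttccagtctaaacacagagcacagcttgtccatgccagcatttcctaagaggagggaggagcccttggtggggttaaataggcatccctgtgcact

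The heat shock element was searched as 3 alternating units of GAA and TTC with 2 free bases between units, and the STAT element as TTC and GAA with 3 free bases between them, on both strands. The motifs can overlap. The heat shock element occurred in 0.663% of 33469 promoter windows and, of the 29 serpins with a promoter in the table, in Serpinh1 alone. The STAT element occurred in 7.67% of the windows and in 2 serpins, Serpina3l and Serpina3n. A match describes letters in a window and is no evidence of binding.

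The cytosolic clade B differed from gene to gene. Serpinb6a, an intracellular inhibitor of cathepsin G, measured 7.85, 7.70 and 7.92 log2 on fasted polysome arrays, against 7.20, 7.31 and 7.40 on fasted total arrays. The fed values were 7.45, 7.94 and 7.73 log2 on polysomes, against 7.37, 7.34 and 7.26 in total RNA. It was the 1 serpin that was higher on polysomes, 1.44-fold in fasted dams (0.52 ± 0.11 log2, limma adjusted p = 0.00202) and 1.30-fold in fed dams (0.38 ± 0.11, limma adjusted p = 0.0137). Fed polysome array 1 lay only 0.073 log2 above fed total array 1. Without fed polysome array 2 the fed difference was 0.26 log2 (limma adjusted p = 0.0706), and without fed total array 3 it was 0.35 log2 (limma adjusted p = 0.0501).

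Serpinb9, the inhibitor of granzyme B, measured 8.17, 7.78 and 8.09 log2 on fasted polysome arrays, against 8.44, 8.33 and 8.56 on fasted total arrays. Fed dams gave values of 7.98, 7.57 and 7.74 log2, against 8.36, 8.31 and 8.65. It was 1.35-fold lower in fasted dams (-0.43 ± 0.13 log2, limma adjusted p = 0.0157) and 1.60-fold lower in fed dams (-0.67 ± 0.13, limma adjusted p = 0.00102). The fasted call was lost without fasted total array 3 or fasted polysome array 2 (limma adjusted p = 0.0607 and 0.0689). Serpinb10 (bomapin, a serpin of myeloid progenitors) measured 9.24, 8.34 and 9.07 log2 on fasted polysome arrays, against 9.29, 9.36 and 9.79 on fasted total arrays. In fed dams it measured 8.65, 9.05 and 8.67 log2, against 9.30, 9.78 and 9.59. It passed in both diets (-0.59 ± 0.21 and -0.77 ± 0.21 log2, limma adjusted p = 0.0363 and 0.0101), and fasted polysome array 2 was the lowest of all 12. Without that array the fasted difference was -0.32 log2 (limma adjusted p = 0.158), and the fasted call was also lost without fasted total array 2 or 3 (limma adjusted p = 0.051 and 0.146). Centring arrays on their median, or fitting only the arrays compared, lost it too (limma adjusted p = 0.0522 and 0.0567).

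Serpinb1a, the leukocyte elastase inhibitor, showed no clear order of the fractions. It measured 10.96, 10.52 and 11.18 log2 on fasted polysome arrays, against 10.54, 10.76 and 10.60 on fasted total arrays, and 10.68, 10.98 and 10.85 on fed polysome arrays, against 10.35, 11 and 10.82 on fed total arrays. Its differences were 0.25 ± 0.17 and 0.11 ± 0.17 log2 (limma adjusted p = 0.261 and 0.641), with 95% intervals from -0.12 to 0.62 in fasted and from -0.26 to 0.48 in fed dams. Without fasted polysome array 2 it was higher on polysomes in fasted dams (0.44 log2, limma adjusted p = 0.0457). Serpinb6b, a close relative of Serpinb6a, measured 0.10 ± 0.11 log2 in fasted and -0.22 ± 0.11 in fed dams and did not pass, but was lower in fed dams without fed polysome array 3 (-0.31 log2, limma adjusted p = 0.0368). The Serpinb6 and Serpinb9 genes have close relatives, and signal shared between their probes was not tested.

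**Figure D2:**
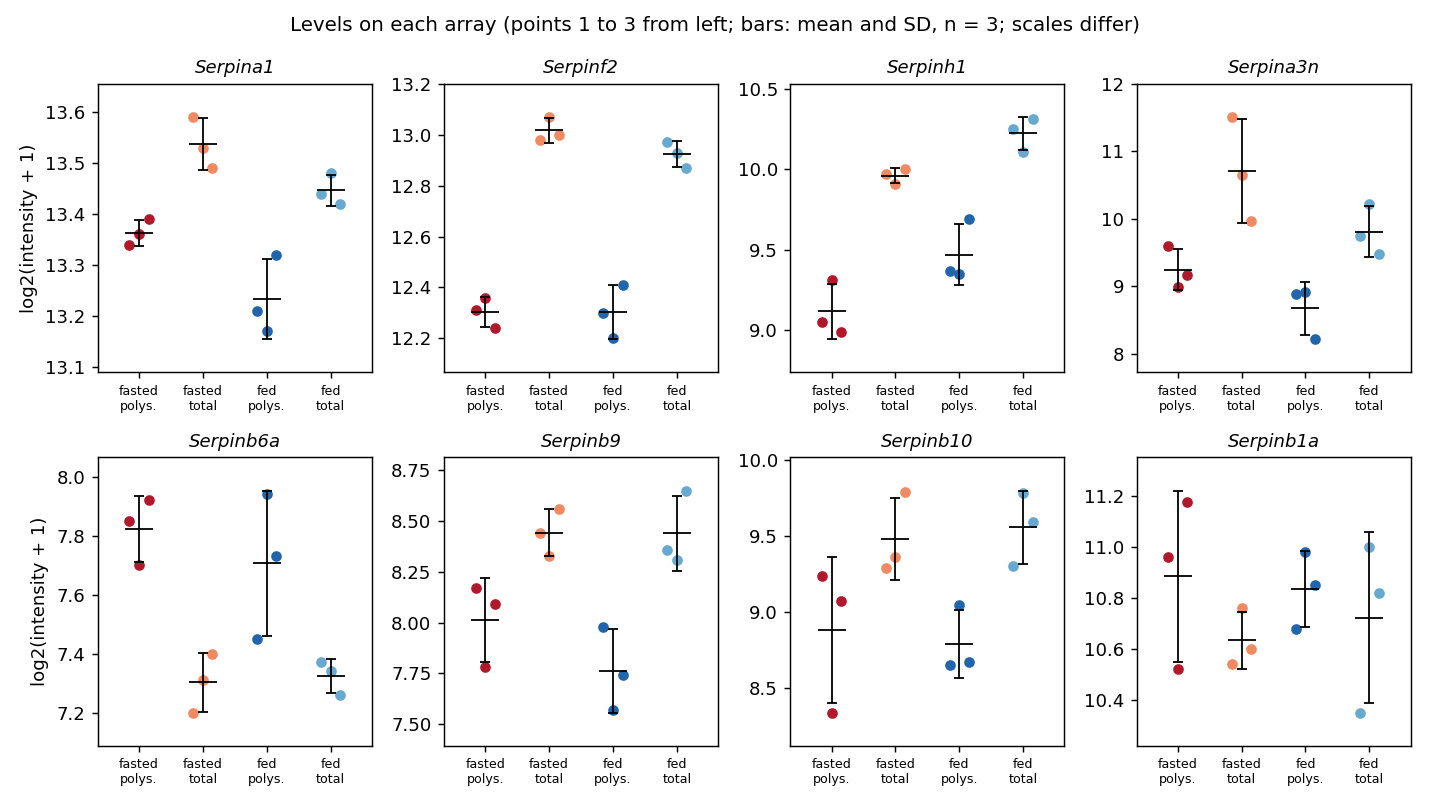
Levels of 8 serpins on each array in log2(intensity + 1), by group, with polysome left of total RNA in each diet. Points are arrays 1 to 3 and bars are the mean and SD (n = 3). Serpina1, Serpinf2, Serpinh1, Serpina3n, Serpinb9 and Serpinb10 lie lower in polysome RNA, Serpinb6a lies higher, and Serpinb1a overlaps.

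Fetal liver makes blood cells, and markers of neutrophil and mast cell granules are set beside Serpinb1a, Serpinb9 and Serpinb10. These markers do not include granzyme B, the target named for Serpinb9. The 14 granule markers summed to 13.32 to 13.55 log2 in fasted polysome RNA, against 13.5 to 13.67 in fasted total RNA, and to 13.3 to 13.56 in fed polysome RNA, against 13.53 to 13.91 in fed total RNA. Of the 9 tested, 2 were higher and 3 lower on polysomes in fasted dams, and 2 were higher and 4 lower in fed dams. Among all genes tested, 25.5% were higher and 18.2% lower in fasted dams, and 24.1% and 19.4% in fed dams. The part of cell makeup in the clade B values was not tested.

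As a class, the 14 secreted members had a median difference of -0.55 log2 in fasted and -0.52 in fed dams, against 0.10 and -0.22 for the 5 clade B members and 0.054 and 0.042 for all 10174 genes. The secreted median lay 0.65 log2 below the clade B median in fasted dams and 0.30 below it in fed dams. The 5 clade B values ranged from -0.59 to 0.52 log2 in fasted and from -0.77 to 0.38 in fed dams, so the classes overlapped. Over all members, with those below the filter included, the medians were -0.34 and -0.36 log2 for 21 secreted members, against -0.053 and -0.035 for 14 clade B members. These are descriptions of chosen members and carry no test. In pairs of arrays with the same diet and number, 12 of 14 secreted members and Serpinh1 were lower in polysome than in total RNA in all 6 pairs, as were 2 of 5 clade B members, Serpinb9 and Serpinb10. Serpinb6a was higher in all 6. The share of all genes that were lower or higher in all 6 pairs was not taken, so these counts have no background beside them.

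**Figure D3:**
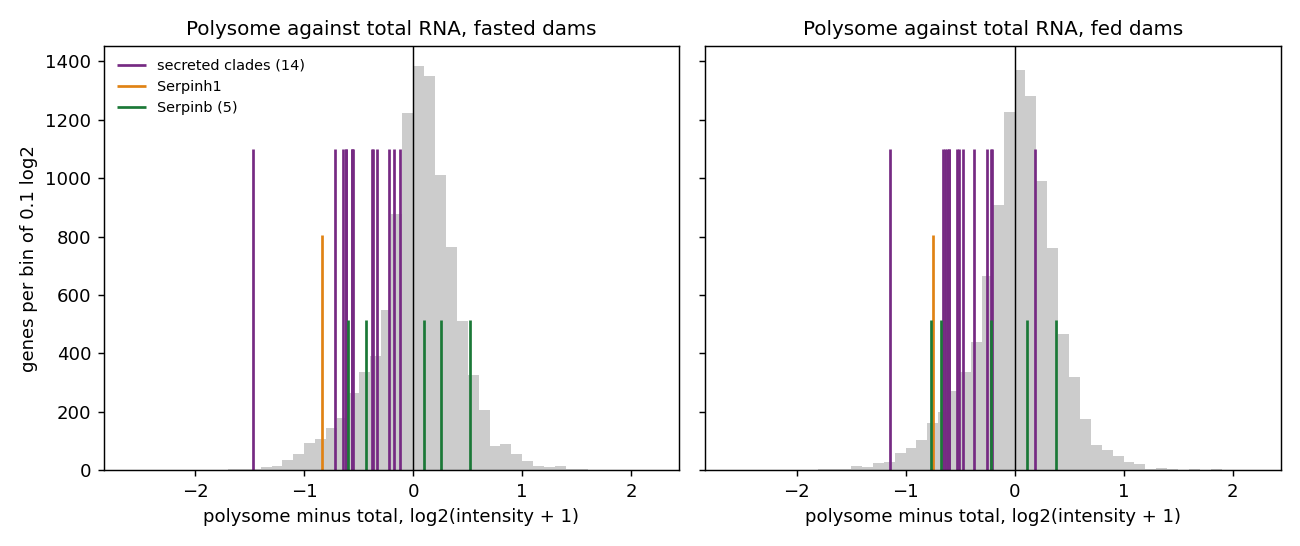
Distribution of the polysome minus total difference over all 10174 genes tested (grey, genes per bin of 0.1 log2), for fasted (left) and fed dams (right). Vertical lines mark single serpins, and their heights only separate the classes. The secreted members lie mostly left of the centre at 0.054 and 0.042 log2, and the 5 clade B members lie on both sides.

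Many secreted serpins are among the brightest genes of the liver, so the share of lower genes was also taken among bright genes alone. Of 1251 genes with a mean level of at least 11 log2, 24.9% were lower on polysomes in fasted and 28.5% in fed dams. All 9 secreted serpins at that level were lower in both diets. Of 26 other secreted plasma proteins tested, 19 were lower and 1 higher in fasted dams, with a median of -0.34 log2, and 16 were lower and 1 higher in fed dams, with a median of -0.29 log2. Hemopexin (Hpx), which binds free heme, was 1.79-fold lower in fasted and 1.76-fold lower in fed dams. Of 25 tested protease inhibitors that are no serpins, 17 were lower and 1 higher in each diet. These lists share genes with each other, and none contains a serpin. The 14 hepatocyte markers, which summed to 17.01 to 17.05 log2 in fasted polysome RNA against 17.2 to 17.27 in fasted total RNA, held 9 lower and 1 higher member in fasted dams. In fed dams they summed to 16.96 to 17.1 log2 in polysome RNA against 17.19 to 17.23 in total RNA, with 8 lower and 1 higher. Markers of some other cell types were lower as well. In fasted dams these were 11 of 12 endothelial, 8 of 12 macrophage and 9 of 14 stellate and mesenchymal markers, with medians of -0.58, -0.64 and -0.79 log2. In fed dams 7, 7 and 10 of them were lower. Higher were 1, 1 and 0 of them in fasted and 1, 0 and 1 in fed dams. Of 6 megakaryocyte markers, 3 were lower in each diet, and 1 was higher in fed dams. The 9 erythroid markers had medians of -0.024 log2 in fasted and -0.036 in fed dams. Of these 9, 1 was lower in each diet, and 1 was higher in fasted and 2 in fed dams. The part of these markers in the serpin values was not tested.

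Maternal fasting changed none of the 20 tested serpins past the threshold, in total or in polysome RNA. By limma, 0 of 20 were called in each fraction, against 1.03% of all genes in total RNA (0.737% higher and 0.295% lower) and 2.01% in polysome RNA (1.59% higher and 0.423% lower). At an unadjusted p below 0.05 there were 3 serpins in total RNA and 1 in polysome RNA, against 1646 and 2122 of all genes. Limma with trend and robust priors also called 0 in each. The groups did not overlap for 2 serpins higher (Serpina1 and Serpinf2) and 2 lower (Serpinb6b and Serpinh1) in total RNA, where 12.9% of all genes were higher and 11.9% lower without overlap. In polysome RNA they did not overlap for 2 higher (Serpina1 and Serpina3n) and 1 lower (Serpinh1), against 12.4% and 8.38% of all genes.

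**Figure D4:**
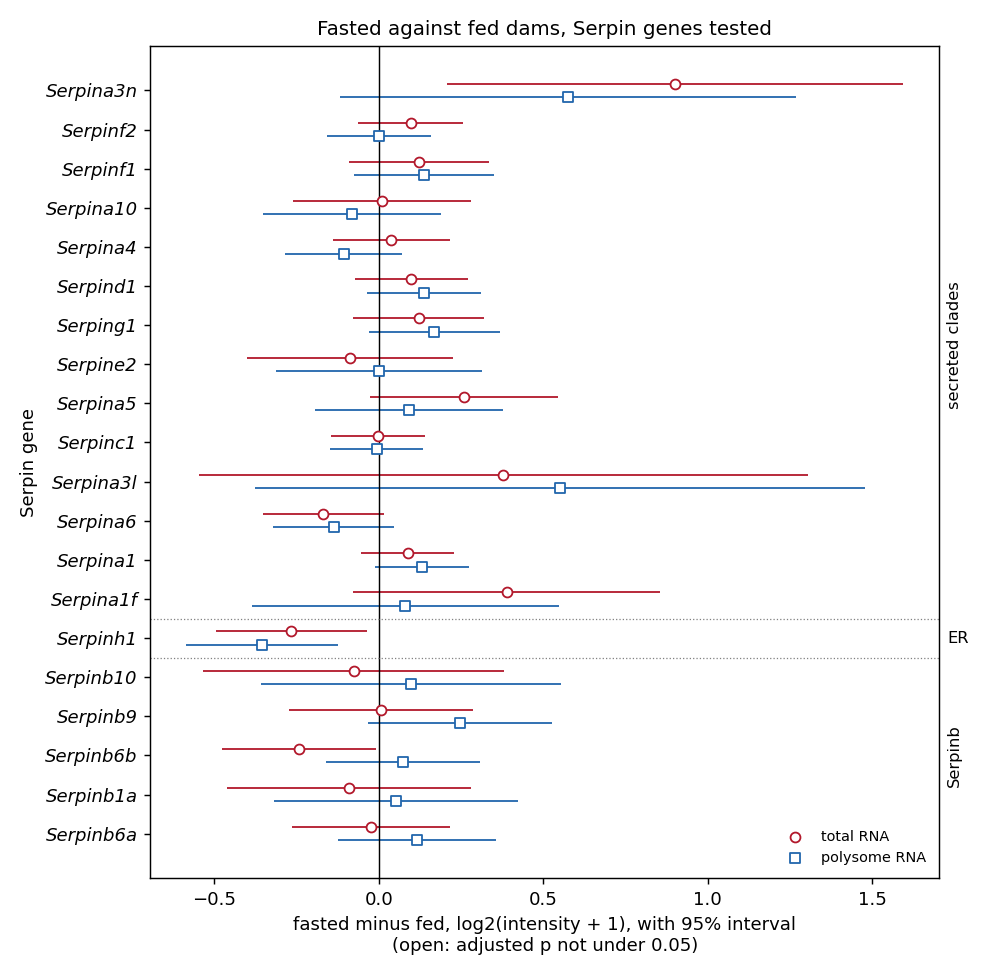
Change between fasted and fed dams for the 20 tested serpins, in total (red circles) and polysome RNA (blue squares). The x axis is fasted minus fed in log2(intensity + 1), and bars are 95% intervals of the limma fit. All symbols are open because none passed the adjusted threshold, and the bars of Serpina3n, Serpinb6b and Serpinh1 in total RNA and of Serpinh1 in polysome RNA leave out 0.

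Serpina3n had the widest fasting difference of the family, at 11.51, 10.65 and 9.97 log2 in fasted total RNA against 9.74, 10.22 and 9.47 in fed total RNA. Fasted array 3 lay below fed array 2, so the groups overlapped, and the difference of 0.90 ± 0.32 log2 did not pass (limma adjusted p = 0.188). The difference was 0.50 log2 without fasted total array 1 and 1.27 without fasted total array 3, and did not pass in either (limma adjusted p = 0.506 and 0.0653). On polysomes its values did not overlap, at 9.59, 8.99 and 9.16 log2 in fasted against 8.88, 8.91 and 8.22 in fed dams, but the difference of 0.58 ± 0.32 log2 did not pass (limma adjusted p = 0.332), and without fed polysome array 3 it was 0.35 log2. Beside it, 0 of 19 other acute phase genes were called in either fraction. Their medians were 0.071 log2 in total and 0.062 in polysome RNA. The genes nearest to the threshold were the interleukin-6 receptor Il6r in total RNA (0.42 ± 0.098 log2, limma adjusted p = 0.056) and Itih4, an inter-alpha-trypsin inhibitor heavy chain, in polysome RNA (-0.26 ± 0.073 log2, limma adjusted p = 0.0706).

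Serpinh1 had lower values in fasted than in fed dams without overlap in both fractions. In total RNA the values were 9.97, 9.91 and 10 log2 in fasted against 10.25, 10.11 and 10.31 in fed dams (-0.27 ± 0.11, limma adjusted p = 0.239). On polysomes they were 9.05, 9.31 and 8.99 log2 in fasted against 9.37, 9.35 and 9.69 in fed dams (-0.36 ± 0.11, limma adjusted p = 0.0895). Without fasted polysome array 2 the polysome difference was -0.45 log2 and passed (limma adjusted p = 0.0291). Of 16 tested heat shock factor targets other than Serpinh1, Hsph1, a cytosolic chaperone, was lower in both fractions (1.88-fold in total and 1.79-fold in polysome RNA), and the other 15 did not pass in either; the list's medians were -0.23 and -0.13 log2. Of the 18 collagens and collagen-modifying proteins, 1 was lower in total RNA, the lysyl oxidase Lox (1.40-fold), and 0 were called in polysome RNA.

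For the bright plasma serpins Serpinc1, Serpina1 and Serpina6 the SE of the fasting difference lay below the median SE of all genes, 0.095 log2. Serpinc1 measured -0.003 ± 0.066 log2 in total RNA, with a 95% interval from -0.15 to 0.14, and -0.0068 ± 0.066 on polysomes, with an interval from -0.15 to 0.14. Serpina1 measured 0.087 ± 0.066 log2 in total RNA and 0.13 ± 0.066 on polysomes, and its fasted values lay above its fed values without overlap in both fractions. The intervals ran from -0.055 to 0.23 and from -0.011 to 0.27 log2. Serpina6 measured -0.17 ± 0.086 log2 in total RNA and -0.14 ± 0.086 on polysomes, with intervals from -0.35 to 0.016 and from -0.32 to 0.047. Of 16 tested glucocorticoid-responsive genes, 0 were called in total RNA and 1 was higher on polysomes, the transcription factor Zbtb16 (1.61-fold, limma adjusted p = 0.0261).

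The secreted members had a median fasting difference of 0.098 log2 in total RNA, with 11 of 14 above 0, against -0.076 for the 5 clade B members, of which 1 was above 0, and 6.7e-04 for all genes. Of all 10174 genes, 5111 were above 0 in total RNA. Over all members the medians were 0.038 log2 for the 21 secreted and -0.020 for the 14 clade B members. The gap between the tested classes, 0.17 log2, was 0.084 without fasted total array 1 and 0.29 without fed total array 1. On polysomes the medians were 0.086 log2 for the secreted members, 0.098 for clade B, with 5 of 5 above 0, and 0.016 for all genes, of which 5490 were above 0. Serpinb6b was the clade B member without overlap in total RNA, at 6.22, 6.44 and 6.46 log2 in fasted against 6.46, 6.71 and 6.68 in fed dams (-0.24 ± 0.11, limma adjusted p = 0.293). Its highest fasted and lowest fed values were equal at this rounding, so the groups nearly touched. Serpinb9 on polysomes measured 0.25 ± 0.13 log2 (limma adjusted p = 0.299). It passed without fed polysome array 1 and fasted polysome array 2 (0.47 log2, limma adjusted p = 0.0304).

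The fasting effect did not differ between fractions for any serpin at the threshold. By limma's test of the difference between effects, 0 of 20 serpins and 0 of all 10174 genes passed, which is 0% of genes, and 0 serpins and 549 genes had an unadjusted p below 0.05. Limma with trend and robust priors also called 0 serpins. For the 5 clade B members the fasted minus fed difference was more positive on polysomes than in total RNA, by 0.14 to 0.32 log2. That is a difference in sign as much as in size: 4 of the 5 were below 0 in total RNA, and all 5 were above 0 on polysomes. The secreted members were divided, with 7 above and 7 below 0 in the difference between effects. Of all 10174 genes, 5423 were above 0. The smallest p among the tested serpins belonged to Serpinb6b (0.32 ± 0.15 log2, limma adjusted p = 0.856). The secreted median was 0.0057 log2 and the clade B median 0.17. With the members below the filter included, the medians were 0.015 log2 for 21 secreted and -0.0022 for 14 clade B members. Of these 14, the 9 below the filter stayed at or below 5.76 log2 on every array. The median over all members therefore cannot decide whether the pattern of the 5 tested members holds.

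Below the filter lay 16 members, described by their levels alone. Serpina7 (thyroxine-binding globulin) measured 5.98, 5.03 and 6.54 log2 in fasted total RNA and 5.29, 5.30 and 5.26 in fed total RNA, and 5.39, 5.09 and 6.55 in fasted polysome RNA and 5.02, 5.31 and 5.06 in fed polysome RNA. The 2 arrays numbered 3 of fasted dams, 1 in each fraction, were thus its highest. Serpina3c was also above the filter level on those 2 arrays alone, at 6.38 log2 in total and 6.33 in polysome RNA. Serpini2 (pancpin, known from the pancreas) measured 3.84, 3.87 and 3.89 log2 in fasted total RNA against 4.93, 4.06 and 4.14 in fed total RNA. Its highest array, fed total 1, was also the highest for the pancreatic marker Cpa1. Serpinb2 (plasminogen activator inhibitor 2) measured 4.70, 4.88 and 4.95 log2 on fed polysome arrays against 5.65, 5.76 and 5.24 on fed total arrays. Serpina9, Serpina16, Serpina3m, Serpini1, Serpinb3, Serpinb5, Serpinb7, Serpinb8, Serpinb9d, Serpinb11, Serpinb12 and Serpinb13 stayed between 3.36 and 4.92 log2 on all 12 arrays. For Serpina9 this holds for the probe that names it alone. Of the 2 probes left out, the probe naming Serpina11 and Serpina9 averaged 8.32 log2, above the filter. The probe naming Serpina9 and Serpina12 averaged 5.69 log2. Which gene gave the signal of these probes was not tested.

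The targets of the serpins were followed from a list of proteases. Of 28 tested, 2 were higher after fasting in total RNA, F11 (coagulation factor XI, 1.57-fold, limma adjusted p = 0.0197) and Prss8 (prostasin, 1.33-fold, limma adjusted p = 0.0395), and 0 were called in polysome RNA. Among all genes tested, 0.737% were higher after fasting in total RNA and 1.59% in polysome RNA. F11 measured 0.42 ± 0.11 log2 on polysomes (limma adjusted p = 0.0662). Ctsl, a lysosomal cathepsin, measured 0.55 ± 0.14 log2 on polysomes (limma adjusted p = 0.0545). Of the 25 protease inhibitors that are no serpins, 0 were called after fasting in total RNA and 2 were higher on polysomes, the metalloproteinase inhibitor Timp1 (0.46 log2, limma adjusted p = 0.0417) and the tissue factor pathway inhibitor Tfpi2 (0.38 log2, limma adjusted p = 0.0442). Between fractions, 19 of the 28 proteases were lower on polysomes in each diet and 0 were higher. Proc (protein C, which Serpina5 inhibits) was 2.19-fold lower in fasted and 1.95-fold lower in fed dams. Among all genes tested, 18.2% were lower and 25.5% higher on polysomes in fasted dams, and 19.4% and 24.1% in fed dams. Of 15 receptors and cofactors of serpins, 9 were lower and 2 higher on polysomes in each diet. After fasting, 0 of these 15 were called in total RNA and 1 was higher on polysomes, the matrix proteoglycan decorin (Dcn, 1.68-fold, limma adjusted p = 0.024).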

How the data were processed

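RNA of 12 samples was measured on 1-colour arrays, and the authors deposited 1 intensity per probe and array, which the submitters' processing notes credit to RMA. The 28826 values per array ran from 3.62 to 21344, a linear scale, so log2(value + 1) was analysed. The annotation table linked 15209 probes to 1 symbol and 306 to several, and 13311 were not listed. The brightest probe stood for a gene. Genes at or above the 40th percentile of probe means (6.07 log2) were tested, 10174 in all. With limma 3.58.1 (R 4.3.3), 1 mean per group was estimated from the 12 arrays together, leaving 8 residual degrees of freedom. P-values are two-sided and Benjamini-Hochberg adjusted over these genes, and the procedure was tested on simulated data. Figures used Python 3.11.15 and matplotlib 3.10.9.

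Every member could be named, with values on every array for called and well-known members; other genes were named from fixed lists, at most 4 per comparison. The array values of Serpina5, Serpinb10, Serpinb6b, Serpina3c, Serpini2 and Serpinb2 were added after values were seen. The members, lists and alternatives were chosen with earlier results of these data known. The labels number arrays 1 to 3 without saying what a number marks. Deviations from group means correlated at 0.15 to 0.36 in the 6 pairs of total and polysome arrays with the same diet and number. These numbers were therefore treated as pairs in the pair counts and in the replicate block within each diet. The main fit, which gave the SEs and calls, did not pair the arrays. Across diets, numbers correlated at -0.14 to 0.25.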

Additional observations from a re-analysis of the deposited data

How the results depend on the processing

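Filtering, scaling, the variance priors, the arrays fitted, replicate blocks and single arrays left out were varied. The count called for fasting in polysome RNA, 0, was 1 without fasted polysome array 2 (Serpinh1, lower) and 2 without fed polysome 1 and fasted polysome 2 together (Serpinh1 lower, Serpinb9 higher); over single arrays left out it ran from 0 to 1. The secreted minus clade B median of the difference between fasting effects, -0.17 log2, ran from -0.38 to -0.091 over single arrays left out, its lowest value being that without fasted polysome array 2, and was -0.37 without fed polysome 1 and fasted polysome 2 together. The cause was not tested. For fasting in total RNA the secreted minus clade B median, 0.17 log2, ran from 0.084 to 0.29 over single arrays left out. The secreted minus clade B median of fasting in polysome RNA, -0.012 log2, changed sign over single arrays left out, from -0.18 to 0.063. Over all alternatives, the count of serpins called between fractions ran from 12 to 16 in each diet, against 16 in fasted and 15 in fed dams, and no call changed direction. In both diets 9 serpins passed in all 22 alternatives: Serpina10, Serpina4, Serpinc1, Serpind1, Serpine2, Serpinf1, Serpinf2, Serping1 and Serpinh1. The main fit called 43.7% of all genes in fasted and 43.5% in fed dams. The share of all genes that passed in all 22 alternatives was not taken, so the 9 have no background beside them. In fasted dams Serpina1 passed in 5, Serpina6 in 11, Serpina5 in 15, Serpinb10 in 16 and Serpinb9 in 20 of the 22. In fed dams Serpina1, Serpina3n and Serpinb6a each passed in 20 and Serpina6 in 18. With the replicate block within each diet, 15 serpins were called between fractions in fasted and 16 in fed dams. With replicate number as a block over all arrays, 15 were called in each diet and 0 for fasting in total RNA, in polysome RNA and for their difference. The counts of all genes called ran from 17 to 199 for fasting in total RNA and from 11 to 1263 in polysome RNA. Signal near the filter limits Serpina5, Serpina1f and Serpinb6b, and members below it were not tested.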
